A study of Homo sapiens with 4 samples.

Results

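The expression of 46 genes of mitosis and the spindle was examined in a colon cancer cell line after TGF-β1 treatment. The genes are the cyclins and kinases that drive a cell into mitosis, the parts of the kinetochore and the spindle, the checkpoint that delays chromosome separation, and the proteins that condense chromosomes and divide the cell. They were listed by symbol for their function, with earlier results of these data known, and all 46 were found among the 19775 genes read on the arrays. Of the 4 arrays, 2 came from LSTGFBR2 cells that grew for 16 hours and then for another 16 hours in medium with 5 ng/ml TGF-β1, and 2 came from untreated LSTGFBR2 cells. LSTGFBR2 is a colon cancer line that carries the type II TGF-β receptor, TGFBR2, under a doxycycline-switched promoter. Doxycycline is given as 1 μg/ml in one protocol field and as 1 μM in another, without naming the arrays it was used for. Nothing in the labels says that the line is a single clone or that replicates are separate cultures, so the spread behind each p-value may be technical. No sample was dropped or imputed.

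Each array gave 1 value per probe set, a group of short probes that reads a transcript, on the log2 scale of RMA, a method that brings the arrays to a common distribution. Fold changes compare a probe set with itself on other arrays. Levels of different probe sets are ranked only to choose or order what is shown. They are not read as amounts of RNA, since probes differ in affinity. Array medians were 6.57 to 6.61, and the replicate arrays correlated at 0.996 in both groups across genes. The probe set chosen for TGFBR2 read 14.70 and 14.92 in the TGF-β1 arrays, against 9.44 and 9.55 in the untreated arrays. A second TGFBR2 probe set read 10.58 and 10.76 in the TGF-β1 arrays, against 10.47 and 10.81 in the untreated arrays. The signal of 1 receptor probe set thus moved with the treatment, and the effects of the ligand, of doxycycline and of receptor level cannot be told apart. Of 10 markers of colon epithelium, the adhesion gene EPCAM read 14.29 and 14.19 in the TGF-β1 arrays, against 14.21 and 14.12 in the untreated arrays, and the list's gene means ran from 7.75 to 15.05. All 10 were measured, and CDX2 and LGR5 fell (limma adjusted p = 0.0327 and 0.0136). The leukocyte marker PTPRC read 4.56 and 4.58 against 4.50 and 4.75, and the endothelial marker KDR 3.92 and 3.77 against 3.62 and 3.88, in TGF-β1 and untreated arrays. The gene means of the measured endothelial, leukocyte and fibroblast markers ran from 3.80 to 7.45 (5 genes), from 4.60 to 7.32 (4 genes) and from 3.41 to 9.33 (8 genes). Within the fibroblast list the collagen gene COL3A1 read 7.38 and 5.83 in TGF-β1 arrays, against 9.18 and 7.48 in untreated arrays, without passing the test (limma adjusted p = 0.267).

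A dividing cell turns on its mitotic genes late in the cycle. Cyclin A and cyclin B bind the kinase CDK1 to start mitosis, Polo and Aurora kinases build the spindle, the kinetochore joins each chromosome to spindle microtubules, and the anaphase-promoting complex (APC/C) ends the process by marking cyclins and securin for destruction. Many of these genes carry in their promoters a short element, the cell cycle genes homology region (CHR), bound by the MuvB complexes that hold the genes low in resting cells and activate them before mitosis, and CCAAT boxes, bound by the factor NF-Y. Genes of DNA replication are instead mainly known as targets of E2F factors, which act earlier, at the entry into S phase. TGF-β is known to stop epithelial cells in G1, before DNA replication. In RNA from whole cultures, fewer cells in mitosis and less RNA per mitotic cell cannot be told apart.

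The promoter letters are shown first, since they are what many of the genes share beyond the list itself. RefSeq promoters of the build GRCh38.p14, from 250 bases before to 50 bases after the gene's start, matched 40 of the 46 genes by symbol, with 54 promoters, as some genes have several starts. The letters TTTGAA were the only form of the CHR searched, so a gene without them is not shown to lack a CHR. Searched on both strands, they stood in a promoter of 29 of the 40 genes (72.5%), or 32 of 54 promoters (59.3%). They stood in 15.2% of all 35116 RefSeq promoters and in 18.2% of their 27305 genes. The letters CCAAT, also on both strands, stood in 31 of the 40 genes (77.5%), against 39.7% of all genes. Both motifs stood in 21 of the 40 genes (52.5%), against 7.26%. In the other mitosis lists described further on, CCAAT stood in 60.4% of matched genes and both motifs in 26.1%. Among matched DNA replication genes CCAAT stood in 58.5%. The search windows are of the same length, and the motifs can overlap by 1 base. A match is a description of the letters, not a measured site of binding.

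The 100 bases just before the start are printed below for 7 genes. The first 5 show the CHR letters with a CCAAT box near them, in members with the largest difference of their role group. The last are MAD2L1 and CENPE, the members with the largest differences between groups. All run 5′ to 3′ on the gene's strand, and capitals mark TTTGAA or CCAAT on either strand. The regions are chr15:59105046-59105145 on the plus strand for CCNB2, chr16:23678789-23678888 (plus) for PLK1, chrX:70290004-70290103 (plus) for KIF4A, chr15:90994536-90994635 (minus) for PRC1, chr10:128126424-128126523 (minus) for MKI67, chr4:120066849-120066948 (minus) for MAD2L1 and chr4:103198344-103198443 (minus) for CENPE.
CCNB2: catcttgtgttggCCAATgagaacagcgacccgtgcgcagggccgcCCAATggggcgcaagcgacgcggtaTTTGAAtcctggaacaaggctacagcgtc
PLK1: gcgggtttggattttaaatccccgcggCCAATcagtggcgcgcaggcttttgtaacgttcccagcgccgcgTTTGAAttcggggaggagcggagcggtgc
KIF4A: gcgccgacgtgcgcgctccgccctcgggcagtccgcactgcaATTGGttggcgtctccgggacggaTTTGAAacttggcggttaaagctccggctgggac
PRC1: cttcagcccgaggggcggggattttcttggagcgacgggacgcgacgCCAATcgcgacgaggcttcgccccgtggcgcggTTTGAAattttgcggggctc
MKI67: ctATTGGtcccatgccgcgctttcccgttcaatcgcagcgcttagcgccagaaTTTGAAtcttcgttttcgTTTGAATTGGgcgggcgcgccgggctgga
MAD2L1: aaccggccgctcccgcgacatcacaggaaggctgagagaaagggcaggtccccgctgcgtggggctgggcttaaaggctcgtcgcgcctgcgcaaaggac
CENPE: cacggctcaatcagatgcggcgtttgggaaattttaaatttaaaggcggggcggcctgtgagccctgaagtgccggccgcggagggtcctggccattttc

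In CCNB2 and PLK1 the CHR letters began 29 bases before the start, in KIF4A 34 bases and in PRC1 20 bases before it, and MKI67 held them 47 and 29 bases before it. The MAD2L1 promoter held the letters only after the start, at base 25 of the transcript. The CENPE promoter held neither TTTGAA nor CCAAT in its whole window, and other forms of the CHR were not searched. The position was shared more widely. In the bin of 50 bases just before the start, 18 of 54 member promoters held the letters (33.3%), against 2.56% of all promoters, and in the first 50 bases after the start 16.7% did, against 2.17%. Of 52 promoters of the DNA replication genes described further on, 1 held them at all. In the other mitosis lists, also described further on, 52 of 152 promoters (34.2%) and 49 of 111 matched genes (44.1%) held them. The members thus share the letters with many other mitosis genes.

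**Figure D1:**
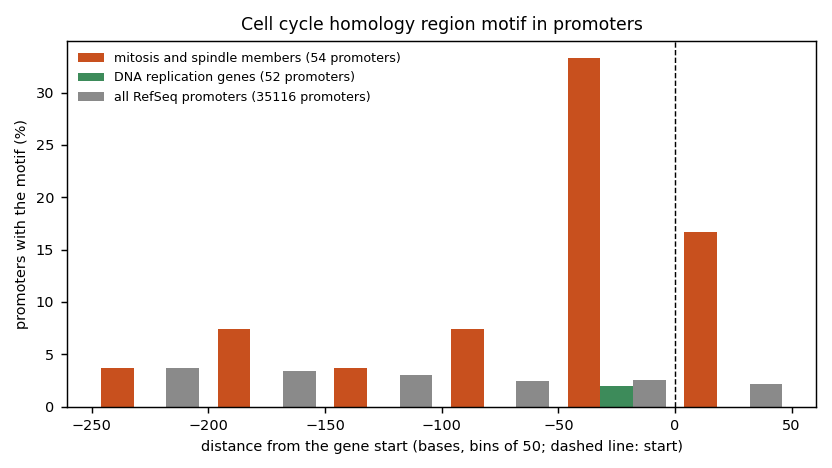
Share of promoters (%) that hold the CHR letters on either strand in each bin of 50 bases, by distance from the gene start, for the mitosis and spindle members (54 promoters), the DNA replication genes (52) and all RefSeq promoters (35116). The members' share is highest just before the start, at 33.3%, where all promoters reach 2.56%.

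Expression was then compared between TGF-β1 and untreated cells, the comparison that the series' design text uses for a response signature. No mitosis or spindle gene passed the test: at a limma adjusted p under 0.05 over all genes, 0 of 46 rose and 0 fell, while 3.34% of the 19775 genes tested were called (1.87% higher and 1.47% lower). At an unadjusted limma p under 0.05, 1 member was higher, CENPE, and 1 was lower, MAD2L1, where 8.18% of all genes were higher and 8.54% lower. By the design text's own rule, which joins an unadjusted p under 0.05 to a minimum rise of 2-fold, 0 members qualified, and 0 by its mirror for lower genes, against 1.02% and 0.369% of all genes. The members' log2 fold changes had a median of 0.10 and ran from -0.41 to 0.68, beside a median of -0.00 for all genes. Of the 46, 34 lay above 0 (73.9%, against 48.9% of all genes). The 34 include AURKB, whose group means were equal except for rounding error in the computation. All members' values lay between 8.85 and 13.67, above the array medians.

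**Figure D2:**
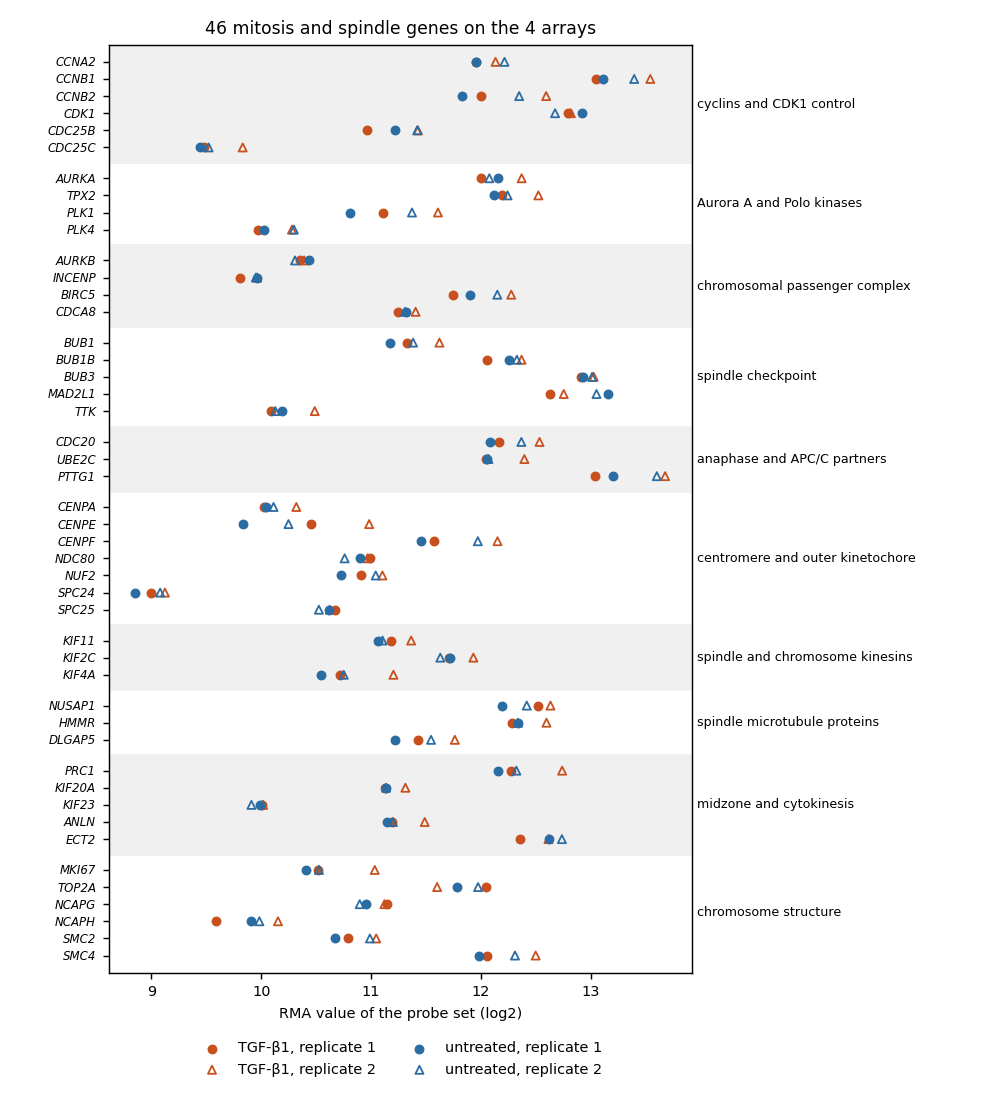
RMA values (log2) of the 46 genes on each of the 4 arrays, in role groups, with TGF-β1 arrays in orange and untreated arrays in blue, circles for replicate 1 and triangles for replicate 2. In 37 of 46 genes the arrays of the groups overlap. Without overlap, 7 genes are higher with TGF-β1 (15.2%, against 21.4% of all genes) and 2 lower (4.35%, against 23%). MAD2L1 (lower) and CENPE (higher) have the largest differences.

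A p that misses the threshold does not show that a gene stayed the same, so the width of the limma intervals is given. For 36 of 46 genes (78.3%) the 95% interval of the change lay within 1.5-fold in either direction, and for 45 of 46 within 2-fold. The same held for 79.8% and 95.7% of all genes, a share that depends on the size of a change as well as on its error. The interval reached past 1.5-fold for CCNB2, PLK1, MAD2L1, PTTG1, CENPE, CENPF, KIF4A, DLGAP5, PRC1 and MKI67, and past 2-fold for CENPE alone. Standard errors ran from 0.0972 (NCAPG) to 0.244 (CCNB2) on the log2 scale. In 7 members both TGF-β1 arrays read above both untreated arrays (15.2%, against 21.4% of all genes), and in 2 members both read below (4.35%, against 23% of all genes). The 7 were CENPE, NDC80, SPC25, KIF11, KIF23, NUSAP1 and NCAPG, and the 2 were MAD2L1 and ECT2.

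The TGF-β1 arrays also differed from each other in these genes. Replicate 2 of the TGF-β1 arrays read above replicate 1 for 42 of 46 members (91.3%, against 51.2% of all genes), with a median difference of 0.30 on the log2 scale, and untreated replicate 2 read above untreated replicate 1 for 33 members (71.7%, against 52.1%), with a median difference of 0.12. Without TGF-β1 replicate 1 the members' median log2 fold change was 0.25, and without TGF-β1 replicate 2 it was -0.02. Without untreated replicate 1 it was 0.05 and without untreated replicate 2 it was 0.14. The median was thus below 0 only in the fit without TGF-β1 replicate 2, which sets replicate 1 alone against both untreated arrays. Between same-numbered arrays, which share only a number in the labels, the members' median differences were 0.03 (replicate 1) and 0.18 (replicate 2). In 23 members TGF-β1 was higher in both of these pairs and in 4 lower, against 6033 and 6366 of 19775 genes.

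**Figure D3:**
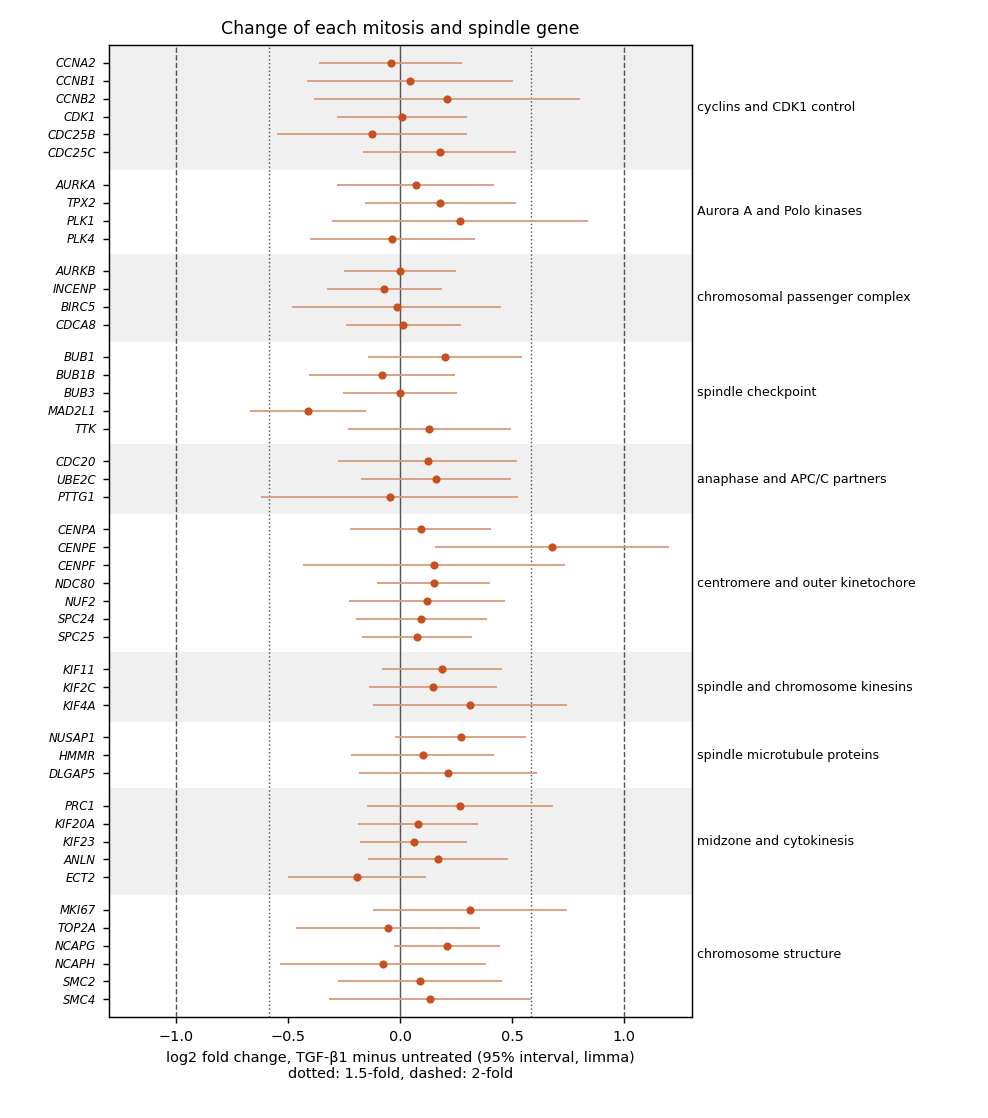
Log2 fold change of each of the 46 genes, TGF-β1 minus untreated, with its 95% limma interval, in role groups. Dotted lines mark 1.5-fold and dashed lines 2-fold, and the intervals of MAD2L1, which ends at -0.15, and CENPE, which starts at 0.15, do not reach 0.

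Entry into mitosis is driven by CDK1 with its cyclins, and by the CDC25 phosphatases that activate it. None of these 6 genes passed, and their log2 fold changes ran from -0.13 (CDC25B) to 0.21 (CCNB2). CCNB1, the main mitotic cyclin, read 13.05 and 13.54 in the TGF-β1 arrays, against 13.11 and 13.39 in the untreated arrays. The untreated values lay between the TGF-β1 values, with a log2 fold change of 0.04 ± 0.189 (SE, n = 2 per group, limma adjusted p = 0.962). CCNB2, the second B-type cyclin, read 12.00 and 12.59 in TGF-β1 arrays, against 11.83 and 12.35 in untreated arrays. The gap between its replicates exceeded the gap between its group means. CDK1 itself had a log2 fold change of 0.01, with a 95% interval of -0.28 to 0.30. CCNA2 (cyclin A2) was at -0.04 and CDC25C at 0.18, and the groups overlapped in all 6 genes at the probe sets used. Of the further probe sets at or above the median of the tested genes, those of CDK1 gave 0.13 and 0.14 and CDC25C's gave 0.16. In these the groups did not overlap. Those of CCNB1 and CCNA2 gave -0.15 and -0.09 with overlap, and none of these further probe sets passed.

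Aurora A and the Polo-like kinases organise centrosomes and the spindle, and TPX2 activates Aurora A on microtubules. TPX2 read 12.19 and 12.52 in TGF-β1 arrays, against 12.12 and 12.24 in untreated arrays (log2 fold change 0.18 ± 0.138 SE, limma adjusted p = 0.634). PLK1 read 11.11 and 11.61 in TGF-β1 arrays, against 10.81 and 11.37 in untreated arrays. Its untreated replicates lay 1.47-fold apart, the widest untreated gap of the 46, and the interval of its change, -0.30 to 0.84, was correspondingly wide. AURKA, the gene of Aurora A, was at 0.07, and PLK4, which starts centriole duplication, at -0.03.

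The chromosomal passenger complex joins Aurora B to INCENP, survivin (BIRC5) and borealin (CDCA8), and corrects faulty chromosome attachments. Its 4 genes were the closest to 0 of the role groups of 4 or more, with log2 fold changes from -0.07 to 0.01, and all 4 intervals lay within 1.5-fold. INCENP read 9.81 and 9.96 in TGF-β1 arrays, against 9.96 and 9.95 in untreated arrays. BIRC5 read 11.75 and 12.27 in TGF-β1 arrays, against 11.90 and 12.15 in untreated arrays, so that the untreated values fell between the TGF-β1 values. AURKB, at a log2 fold change of 0.00 ± 0.103 (SE), had an interval of -0.25 to 0.25.

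The spindle checkpoint holds APC/C inactive until every chromosome is attached. MAD2L1, the gene of the checkpoint protein MAD2, read 12.63 and 12.75 in TGF-β1 arrays, against 13.16 and 13.05 in untreated arrays. Both TGF-β1 arrays lay below both untreated arrays, and the difference of -0.41 ± 0.106 on the log2 scale (SE, n = 2 per group) made it 1.33-fold lower, with a limma adjusted p of 0.109 that missed the threshold. Over the alternatives tried its adjusted p ran from 0.0512 to 0.398 and its log2 fold change from -0.48 to -0.35. The other MAD2L1 probe sets gave log2 fold changes of -0.41 and -0.52. The kinase genes BUB1 and TTK and the BUB1B gene had log2 fold changes of 0.20, 0.13 and -0.08. BUB3, which carries the BUB kinases to the kinetochore, read 12.91 and 13.03 in TGF-β1 arrays, against 12.92 and 13.01 in untreated arrays, by an _x_at probe set, a kind that may also bind related transcripts. A dim further BUB3 probe set read 5.44 and 5.38 in TGF-β1 arrays, against 6.10 and 6.17 in untreated arrays, and was called in the fit over all probe sets (log2 fold change -0.72 ± 0.105 SE, limma adjusted p = 0.0416), where 1.44% of probe sets were called. All of its values lay below the array medians, and the 3 BUB3 probe sets next in brightness to the one used gave -0.07, -0.05 and -0.10.

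Chromosome separation starts when CDC20 activates APC/C, which works with the ubiquitin-conjugating enzyme UBE2C and marks securin (PTTG1) for destruction. UBE2C read 12.05 and 12.39 in TGF-β1 arrays, against 12.06 and 12.07 in untreated arrays, and the groups overlapped (log2 fold change 0.16 ± 0.138 SE). PTTG1 read 13.04 and 13.67 in TGF-β1 arrays, against 13.20 and 13.60 in untreated arrays. Its TGF-β1 replicates lay 1.56-fold apart, the widest gap of any member, and its probe set is of the _x_at kind, so that related copies may add to its signal. CDC20 had a log2 fold change of 0.12.

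Centromere and outer kinetochore genes all had log2 fold changes above 0 at the probe sets used, from 0.07 (SPC25) to 0.68 (CENPE), and 0 of 7 passed. CENPE, a kinesin motor that brings chromosomes to the spindle equator, read 10.45 and 10.98 in TGF-β1 arrays, against 9.83 and 10.25 in untreated arrays. Both TGF-β1 arrays were above both untreated arrays, and the difference of 0.68 ± 0.215 on the log2 scale (SE, n = 2 per group) was the largest of the 46, with a limma adjusted p of 0.178. The alternatives gave 0.41 to 0.94 with limma adjusted p from 0.0473 to 0.548, CENPE passing in 1 of 11, and CENPE has no second probe set here to set beside it. CENPF, a large protein of the outer kinetochore, read 11.58 and 12.15 in TGF-β1 arrays, against 11.45 and 11.97 in untreated arrays, with most of the spread between replicates. Another CENPF probe set, also above the median of the tested genes, gave a log2 fold change of -0.06. The 4 subunits of the NDC80 complex, which grips the microtubule end, lay close together, with log2 fold changes of 0.15 (NDC80), 0.12 (NUF2), 0.09 (SPC24) and 0.07 (SPC25). CENPA, the histone variant that marks the centromere, was at 0.09, by an _x_at probe set that may also bind related transcripts.

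Among the kinesins that act on the spindle and chromosome arms, KIF4A read 10.72 and 11.20 in TGF-β1 arrays, against 10.55 and 10.75 in untreated arrays, which differ by 0.31 ± 0.178 in log2 means (SE, limma adjusted p = 0.479). KIF4A replicate 1 of the TGF-β1 arrays lay within the untreated range. KIF2C, which takes microtubules apart at the centromere, read 11.71 and 11.93 in TGF-β1 arrays, against 11.72 and 11.63 in untreated arrays. KIF11, the motor that pushes the spindle poles apart, was at 0.19 with no overlap of the groups. Of the proteins that bundle and nucleate spindle microtubules, NUSAP1 read 12.52 and 12.63 in TGF-β1 arrays, against 12.19 and 12.42 in untreated arrays. The groups did not overlap, but the change of 0.27 ± 0.120 (SE) did not pass (limma adjusted p = 0.340), and a second NUSAP1 probe set gave -0.01. HMMR and DLGAP5 were at 0.10 and 0.21.

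PRC1, KIF20A and KIF23 shape the spindle midzone, and ECT2 and anillin (ANLN) direct the ring that divides the cell. PRC1 read 12.27 and 12.74 in TGF-β1 arrays, against 12.16 and 12.32 in untreated arrays (log2 fold change 0.27 ± 0.170 SE, limma adjusted p = 0.543). ECT2, the activator of RhoA at the midzone, read 12.35 and 12.61 in TGF-β1 arrays, against 12.62 and 12.74 in untreated arrays, and with MAD2L1 it made up the members whose TGF-β1 arrays both lay below the untreated ones. Its log2 fold change was -0.19, with an interval of -0.50 to 0.11. KIF20A, KIF23 and ANLN were at 0.08, 0.06 and 0.17.

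Genes of chromosome structure include the proliferation marker Ki-67 (MKI67), topoisomerase IIα (TOP2A) and the condensin subunits. MKI67 read 10.52 and 11.03 in TGF-β1 arrays, against 10.41 and 10.53 in untreated arrays, and overlapped between groups (log2 fold change 0.31 ± 0.178 SE, limma adjusted p = 0.481). Its other 3 probe sets gave 0.28, 0.03 and 0.17. SMC4, a condensin ATPase, read 12.06 and 12.50 in TGF-β1 arrays, against 11.98 and 12.31 in untreated arrays, again with more spread between replicates than between groups. TOP2A read 12.05 and 11.60 in TGF-β1 arrays, against 11.78 and 11.97 in untreated arrays, and a second bright TOP2A probe set read 11.86 and 12.00, against 11.54 and 11.69, with log2 fold changes of -0.05 and 0.31, neither of which passed. The condensin genes NCAPG, NCAPH and SMC2 were at 0.21, -0.08 and 0.09.

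The probe sets not used for a gene were read as a check. The 46 genes had 93 probe sets, 25 genes having several, and of the 47 other probe sets 1 was called, the dim BUB3 one, which was also the single one whose log2 fold change differed by more than 0.5 from that of the probe set used. The 31 other probe sets whose mean was at or above the median of the tested genes had log2 fold changes from -0.52 (MAD2L1) to 0.31 (TOP2A).

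Further genes of mitosis were examined as 7 lists, with 122 of 127 genes measured. Of these, 1 fell and 0 rose by limma, where 1.47% and 1.87% of all genes did. At an unadjusted limma p under 0.05, 7 were higher and 14 lower, where 8.18% and 8.54% of all genes were. The median log2 fold change was -0.04. The gene that fell was LIN52, a MuvB subunit, which read 8.57 and 8.52 in TGF-β1 arrays, against 9.16 and 9.09 in untreated arrays (log2 fold change -0.58 ± 0.0989 SE, limma adjusted p = 0.0403). The call was lost in each of the 4 fits without 1 array (adjusted p from 0.149 to 0.226). Its partner gene LIN9 had a log2 fold change of -0.35, and this list of 15 cell cycle transcription factors had a median of -0.15. FOXM1 and MYBL2, the activators that work with MuvB at mitotic genes, were above 0, at 0.18 (limma adjusted p = 0.710) and 0.03 (0.964), neither being called.

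Mitotic entry control had 0 of 10 genes called. WEE1, the kinase that holds CDK1 inactive, read 12.32 and 12.41 in TGF-β1 arrays, against 11.85 and 11.87 in untreated arrays. The arrays did not overlap, and the difference of 0.51 ± 0.0994 (SE, log2 scale) had a limma adjusted p of 0.0550. WEE1 passed over genes with a mean log2 value of 7 or more (0.0356), with an intensity trend (0.0301), with arrays centred on housekeeping genes (0.0473) and with averaged probe sets (0.0358). It did not pass with a minimum of 5 (0.0503), with median centring (0.0619) or with any 1 array left out (0.190 to 0.269). The phosphatase subunit gene PPP2R2D was next, at -0.26. In the kinetochore list, with 0 of 28 called and a median of -0.06, CENPQ and DSN1, of the inner kinetochore and of the MIS12 complex, had log2 fold changes of -0.62 and -0.38 (limma adjusted p = 0.0965 and 0.120). Among 23 other spindle and cytokinesis genes, 0 were called and the median was 0.11. ASPM and KIF18A, a spindle pole protein and a kinesin, were at 0.40 and 0.37. Of 16 APC/C genes 0 were called (median -0.06), with the activator FZR1 at 0.35 and the inhibitor FBXO5 at -0.28. Cohesin, condensin II and separase genes (0 of 15 called, median 0.02) had NIPBL, the cohesin loader, at 0.32 and NCAPD3 at -0.30. Centrosome and centriole genes (0 of 15 called, median -0.04) had CCP110 and CEP97, which cap the centriole together, at -0.52 and -0.27.

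The DNA replication genes, which act earlier in the same cycle, were read in the same fit. Of 47 genes 13 fell and 0 rose by limma, where 1.47% and 1.87% of all genes did. At an unadjusted limma p under 0.05, 36 were lower and 0 higher, where 8.54% and 8.18% of all genes were. The median log2 fold change was -0.43, where the mitosis and spindle members had 0.10. In 42 of the 47 both TGF-β1 arrays lay below both untreated arrays, against 2 of the 46 members and 23% of all genes. In the other mitosis lists both lay below in 38 of 122 genes, and above in 22, against 21.4% of all genes. The 38 include 13 of the 28 kinetochore genes and 11 of the 15 cell cycle transcription factors. PRIM1, the primase subunit, read 10.17 and 9.92 in TGF-β1 arrays, against 10.97 and 10.88 in untreated arrays (1.84-fold lower, limma adjusted p = 0.0227). MCM10, ORC1 and MCM2, which load and start the replication forks, were 1.80-fold, 1.74-fold and 1.73-fold lower. The difference between the lists was not tested, and 0 replication genes were called with any 1 array left out, when a single residual degree of freedom remains.

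G1 cyclins, their kinases and the activating E2F genes gave 5 lower and 0 higher of 12, where 1.47% and 1.87% of all genes were called. Their median log2 fold change was -0.50. CCNE2 (cyclin E2) read 8.95 and 8.44 in TGF-β1 arrays, against 10.15 and 10.03 in untreated arrays, a 2.63-fold difference, and CCNE1, CDC25A and E2F2 were 1.89-fold, 1.77-fold and 1.77-fold lower. With 1 array left out, 0 or 1 of these genes were called. CDC25A and the members CDC25B and CDC25C belong to a single phosphatase family, and their log2 fold changes were -0.82, -0.13 and 0.18, of which the first passed. Of 6 measured CDK inhibitors, CDKN1A, which encodes p21, rose 3.75-fold, to 12.66 and 12.56 in TGF-β1 arrays, against 10.85 and 10.56 in untreated arrays (limma adjusted p = 0.00261), also with any 1 array left out. CDKN1C followed, with 0.38 on the log2 scale (adjusted p = 0.150).

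**Figure D4:**
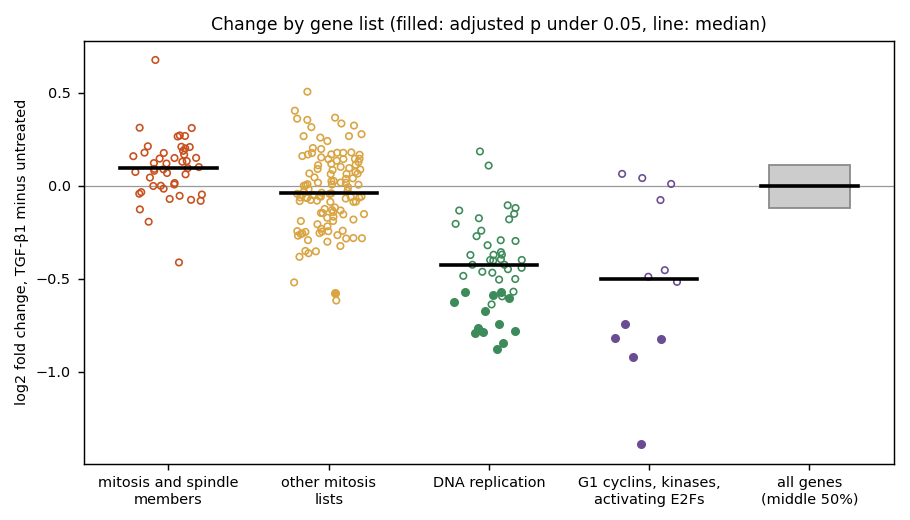
Log2 fold change (TGF-β1 minus untreated) of each gene in the mitosis and spindle members (46), the other mitosis lists (122), the DNA replication genes (47) and the G1 genes (12), with filled points for a limma adjusted p under 0.05 and lines at the medians of 0.10, -0.04, -0.43 and -0.50. The grey box spans the middle 50% of all genes, and filled points appear in the replication and G1 lists, with 1 in the other mitosis lists.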

How the data were processed

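Total RNA of 4 samples was labelled with biotin and read on HG-U133 Plus 2.0 arrays. The authors' deposited log2 values were made by RMA (background correction, quantile normalization and summarization per probe set), per the labels and the series' design text, with no version given there. The log2 scale was judged from the range of 2.48 to 15.34. A shift of most transcripts one way cannot be seen after this scaling, RMA gives no detection call, and precision is limited by having 4 arrays.

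The platform annotation pairs 41097 of 54675 probe sets with 1 symbol and 1801 with several, and symbols were updated through the Entrez ID for 41043. The brightest probe set by mean over the 4 arrays stood for each of 19775 genes, the others being a check. The test was limma's (version 3.58.1, R 4.3.3; lmFit, eBayes, two-sided, no covariate, no filter, all 4 arrays), with Benjamini-Hochberg adjustment over all genes and intervals on 6.13 degrees of freedom. The fit was tested on simulated data. An exact permutation test of 2 against 2 arrays cannot go below 0.333 and was not used.

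The members, lists and tests were chosen with earlier results of these data known. All 46 members are accounted for; values per array are given for called members, and in each of 10 role groups for the member of largest change and the brightest one. In other lists up to 4 called genes are named, or the 2 of largest change where fewer than 2 were called. Further probe sets of MAD2L1, MKI67, TOP2A, NUSAP1, CENPF, CDK1, CDC25C, CCNB1 and CCNA2 were picked with their values in view. So were other members given by fold change, the promoters printed and the markers named. The alternatives used minimum mean log2 values of 5 and 7, an intensity trend, centring on medians or on 6 housekeeping genes, averaged probe sets, every probe set, a replicate block, each array left out, unadjusted p-values and limma's treat at a fold of 1.2. Promoter letters were searched with Python 3.11.15 in RefSeq sequences.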

Additional observations from a re-analysis of the deposited data

How the results depend on the processing

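No member was called under a filter on means below 5 or 7, an intensity trend, either centring, averaged probe sets, limma's treat at a fold of 1.2, or with any 1 array left out. The exceptions were 1 higher (CENPE) with the replicate block, 1 higher and 1 lower at unadjusted p, and 1 lower (BUB3) over every probe set. Of 506 member values under 11 alternatives, 456 kept their direction and side of the threshold, 1 newly passed and 49 changed sign without passing in either fit. The sign held under all 11 for 18 of 46 members. The members' median stayed between 0.075 and 0.113 under the scaling and filter alternatives and ran from -0.017 to 0.252 with 1 array left out. In the other mitosis lists 1 gene rose (WEE1) with a minimum of 7, a trend, housekeeping centring or averaged probe sets, and 0 fell with the block or with 1 array left out, in place of 1. DNA replication had 4 genes lower with the block in place of 13, 13 to 18 under the filters, trend, centrings and averaged probe sets, and 0 with any 1 array left out, where G1 genes had 0 to 1 in place of 5 and a single residual degree of freedom remains. Same-numbered arrays share only a number in the labels. Their deviations from the group means correlated at 0.364 over all genes and at 0.550 over the members, and with the replicate block CENPE passed (adjusted p = 0.0473) while LIN52 (0.0554) and WEE1 (0.0689) did not. No other named member crossed the threshold. No depth applies to arrays.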
